A study of Homo sapiens with 6 samples.

Results

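The genes examined here encode 43 splicing factors and splicing regulators, chosen by symbol from a fixed list: 12 of the SR family, 10 hnRNP proteins, 11 regulators with tissue-restricted roles, 7 RBM and STAR proteins and 3 core factors of the 3' splice site. All 43 are among the 32353 genes of the count table, and all 43 are among the 17887 that passed the filter on low counts. They were compared between CAL27 cells given a control plasmid (3 libraries) and CAL27 cells that overexpressed RBM24 (3 libraries). CAL27 is an established human line of tongue squamous cell carcinoma, and RBM24 binds RNA and regulates splicing in striated muscle. No label tells if replicates came from separate cultures, or how long the plasmids were present. The p-values therefore reflect the spread of these 6 libraries, and that spread may be technical. In the edgeR test the spread of each gene was also drawn toward that of other genes. Its standard errors, intervals and p-values are thus not those of a gene's own libraries alone.

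Splicing is done by the spliceosome, whose U2 particle contains SF3B1 and is brought to the 3' end of an intron by the U2AF heterodimer. Which exons are kept is set around this machinery by regulators: SR proteins bind exonic enhancers and mostly favour inclusion, while hnRNP proteins often bind silencers and favour skipping. Tissue regulators such as the PTBP, MBNL, RBFOX, CELF and ESRP proteins set the splicing programs of neurons, muscle and epithelium, and many of these proteins also adjust their own transcripts by splicing in exons that carry a stop codon.

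None of the 43 genes passed the test between the groups (0 higher and 0 lower; edgeR quasi-likelihood test, Benjamini-Hochberg adjusted p under 0.05). Over all tested genes, 1.54% passed, 0.855% higher and 0.682% lower. The estimated changes ran from -12.2% for RBM3 to 9.30% for PTBP1. For 42 of the 43, the 95% interval of the change lay between -20% and 25%, and the exception was U2AF1. The same held for 57.9% of all tested genes and for 91.6% of the tested genes at or above the CPM level of the least abundant member, of which 2.00% passed the test. That member was U2AF1 (control mean 7.55 CPM), and the next were MBNL3 (12.4 CPM) and PTBP2 (22.4 CPM). This comparison set is therefore not matched in level to the members. In bulk RNA, fewer cells of a type and less RNA per cell cannot be told apart. RBM24 itself was 40.5-fold higher in the same fit (log2 change 5.34, SE 0.0995; edgeR adjusted p = 2.16e-15).

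The libraries held between 53558773 and 68804210 gene counts, of which the 43 genes took between 1.41% and 1.53%. The standard errors of their log2 changes lay between 0.0465 and 0.122. Control library 1 stood apart from the others on the main axis of variation (-33.4, against -4.95 to 15.4). That axis held 33.0% of the variance. On it the RBM24 libraries (9.28 to 15.4) lay above every control library (-33.4, -4.95 and -0.036). All 7 squamous epithelial markers lay above 1 FPKM (the authors' unit, fragments scaled by gene length and library size), with KRT5 at 137 to 154 FPKM, and their summed level was 327 to 333 FPKM in the control and 354 to 363 FPKM in the RBM24 libraries, whose part in the results was not tested. The fibroblast marker COL1A1 (0.98 to 1.23 FPKM), the endothelial CDH5 (1.27 to 1.71) and the monocyte marker CD14 (9.95 to 11.2) were also present, while PTPRC, PECAM1 and VWF lay at or below 0.05 FPKM.

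**Figure D1:**
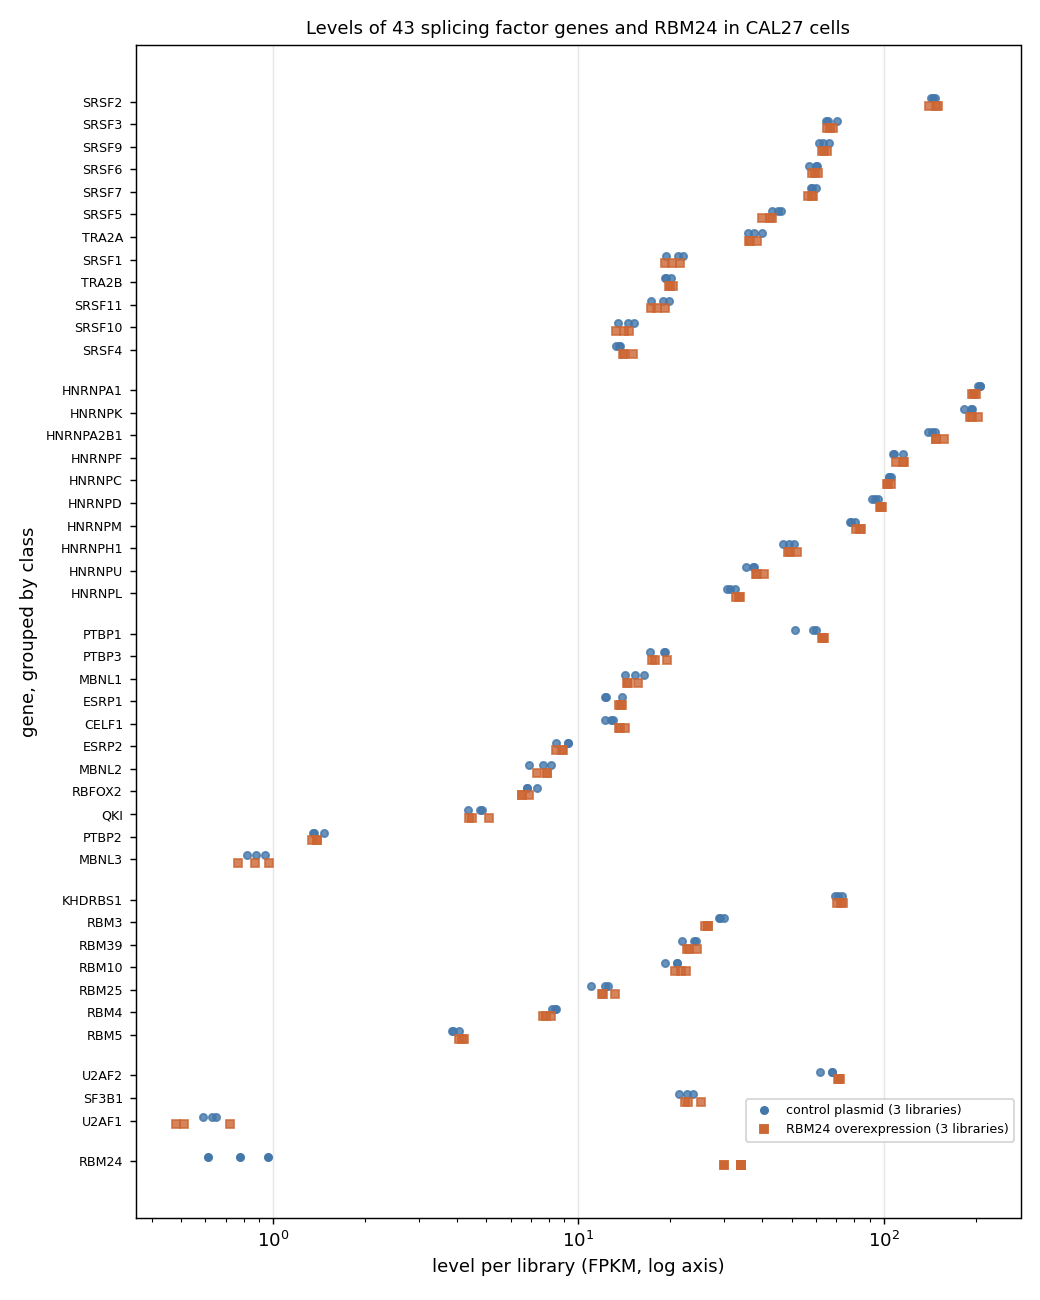
Level of each of the 43 genes and of RBM24 in every library, in FPKM on a log axis, grouped by class and ordered by the control mean. Circles are the 3 control plasmid libraries and squares the 3 RBM24 libraries; the points of the groups lie close together in every row but that of RBM24, which moves from below 1 FPKM to between 29.9 and 34.1 FPKM.

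Levels can be compared between genes only on the FPKM scale. The hnRNP proteins, which coat nascent transcripts, were the most abundant class. Their 10 genes summed to between 1022 and 1094 FPKM over the 6 libraries, against 544 to 572 FPKM for the 12 SR genes. HNRNPA1, a repressor of many exons, led with 206 ± 1.75 FPKM (SD, n = 3) in the control libraries. HNRNPK, which binds C-rich RNA, followed at 191 ± 6.43 FPKM (SD, n = 3). The most abundant SR gene was SRSF2, which binds exonic enhancers, at 145 ± 2.44 FPKM (SD, n = 3). The libraries of SRSF2 overlapped those of HNRNPA2B1 (143 ± 3.86 FPKM, SD, n = 3), so their order is not resolved. The remaining SR genes ran from SRSF3 at 66.8 FPKM down to SRSF4 at 13.5 FPKM.

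Among the tissue regulators PTBP1, the polypyrimidine tract-binding repressor of neuronal exons, was the most abundant, at 56.6 ± 4.78 FPKM (SD, n = 3) in the control libraries. Its paralog PTBP3 stood at 18.5 ± 1.15 FPKM and the neuronal form PTBP2 at 1.39 ± 0.0666 FPKM (SD, n = 3 each). In every library the order was PTBP1, PTBP3, PTBP2, with no overlap. The epithelial splicing regulators ESRP1 and ESRP2 were both present, at 12.8 ± 0.953 and 8.99 ± 0.456 FPKM (SD, n = 3 each). MBNL1, the muscleblind protein that promotes adult splicing patterns, was at 15.3 FPKM, CELF1 at 12.7 FPKM, MBNL2 at 7.56 FPKM and MBNL3 at 0.880 FPKM. RBFOX2 was at 6.97 FPKM, and its neuronal relative RBFOX3 had 1 count in 1 of the 6 libraries.

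RBM24 took a different place among these genes in the 2 groups. In the control libraries it lay at 0.61, 0.78 and 0.96 FPKM, above 1, 1 and 2 of the 43 genes. In the RBM24 libraries it lay at 34.0, 29.9 and 34.1 FPKM, above 24, 23 and 24 of them. Its level with the plasmid was thus near that of HNRNPL (33.4 ± 0.518 FPKM, SD, n = 3) and HNRNPU (39.1 ± 1.26 FPKM, SD, n = 3). The plasmid transcript's length is unknown here, so the FPKM of RBM24 in those libraries is approximate. Its paralog RBM38 was at 18.3 FPKM in both groups.

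**Figure D2:**
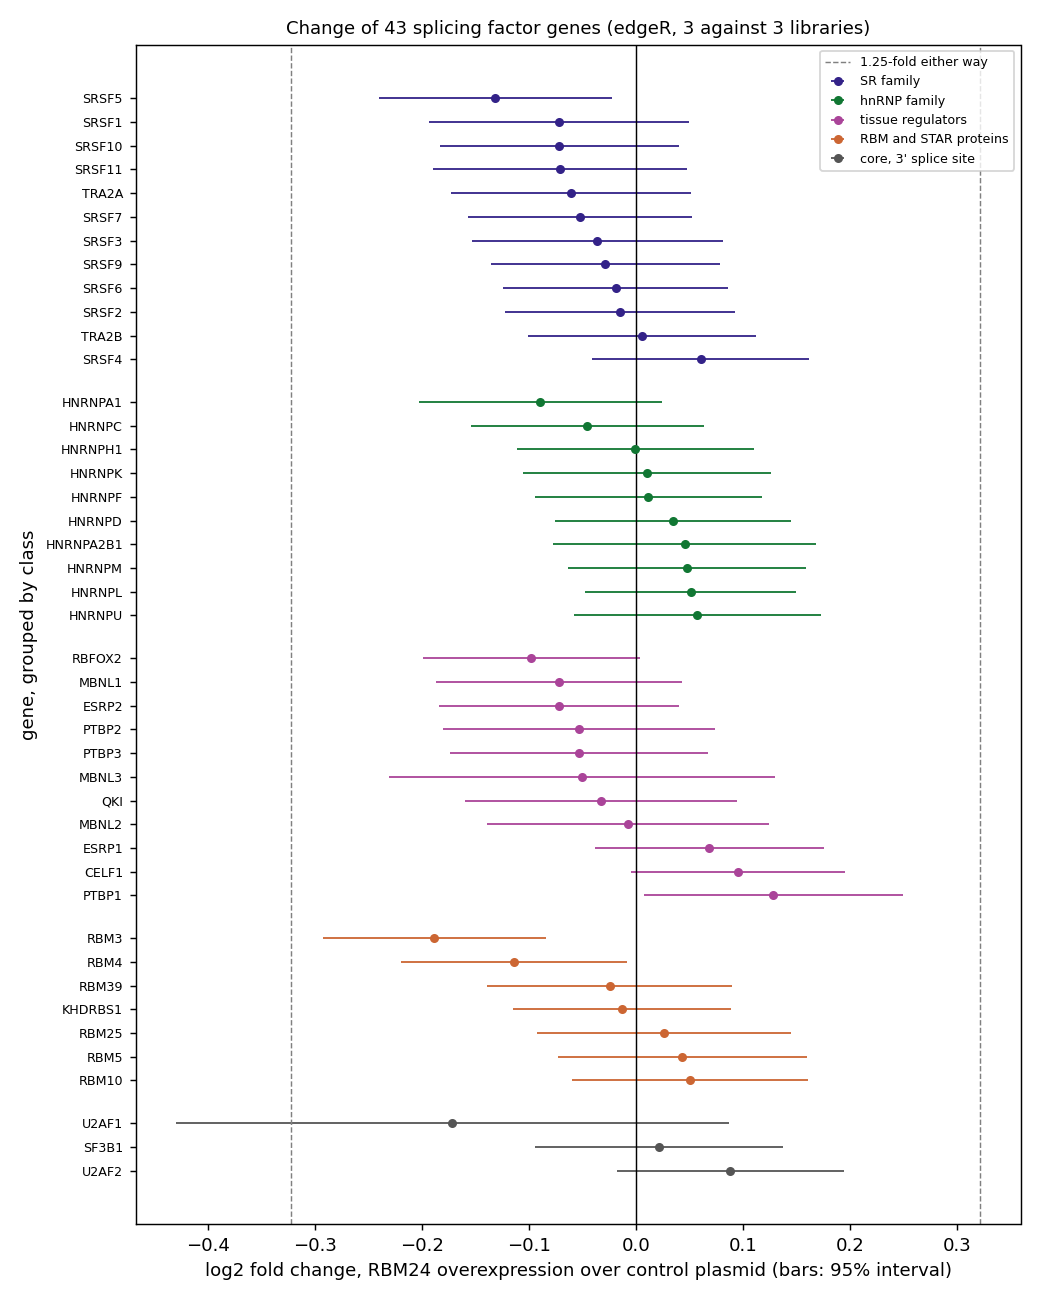
Log2 fold change of each of the 43 genes, RBM24 overexpression over control plasmid, with its 95% interval, grouped by class. Dashed lines mark changes of -20% and 25%; the interval of U2AF1 crosses the lower line and all the others lie between the lines.

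The SR proteins carry an arginine-serine domain that recruits the spliceosome to nearby splice sites. Of the 12 SR genes, 0 passed the test, and 10 had negative and 2 positive log2 changes (7 negative with scaling by total counts alone). The median was -0.04, against -0.0037 over all tested genes. SRSF5 (GRCh38 chromosome 14, 69726900 to 69772005, plus strand), a regulator that also responds to growth signals, had the smallest p of the class. SRSF5 measured 275, 254 and 258 CPM (counts scaled to a common library size) in the control libraries and 231, 242 and 246 CPM in the RBM24 libraries. The RBM24 values were all under the control values, by a small margin. The log2 change was -0.13 (SE 0.0516; edgeR adjusted p = 0.278), or -8.70% with a 95% interval from -15.4% to -1.52%.

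SRSF10, a splicing repressor when dephosphorylated, gave 192, 177 and 192 CPM in the control libraries and 169, 179 and 185 CPM with RBM24. SRSF11 gave 179, 161 and 179 CPM, then 158, 163 and 174 CPM. In both genes the groups overlapped, because control library 2 lay within the range of the RBM24 libraries. Their log2 changes were -0.07 each (edgeR adjusted p = 0.614 and 0.643). With a library left out, SRSF10 ranged from -0.11 without control library 2 to -0.037 without RBM24 library 1, and SRSF11 from -0.12 to -0.039 without the same libraries; SRSF11 was also -0.047 without control library 1, -0.046 without control library 3 and -0.11 without RBM24 library 3. The remaining 9 SR genes, SRSF1, SRSF2, SRSF3, SRSF4, SRSF6, SRSF7, SRSF9, TRA2A and TRA2B, overlapped between the groups in CPM.

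Control library 1 moved with the sign of the SR class. It was the highest of the 6 libraries in 8 of the 12 SR genes, against 23.2% of all tested genes. The same held in 4 of the 7 RBM and STAR genes, 3 of the 10 hnRNP genes and 1 of the 11 tissue regulators. It held in 0 of the 3 core genes, and in 16 of all 43 members (37.2%). The median SR gene lay 0.08 above its own mean over the libraries on the log2 scale in control library 1, and between -0.05 and 0.02 in the other 5 libraries. Without control library 1, 8 of the 12 were negative and the median was -0.02, against -0.04 with all 6 libraries. Scaling by total counts alone, with all 6 libraries kept, gave a median of -0.01. The part of control library 1 in the SR values beyond these counts was not tested.

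**Figure D3:**
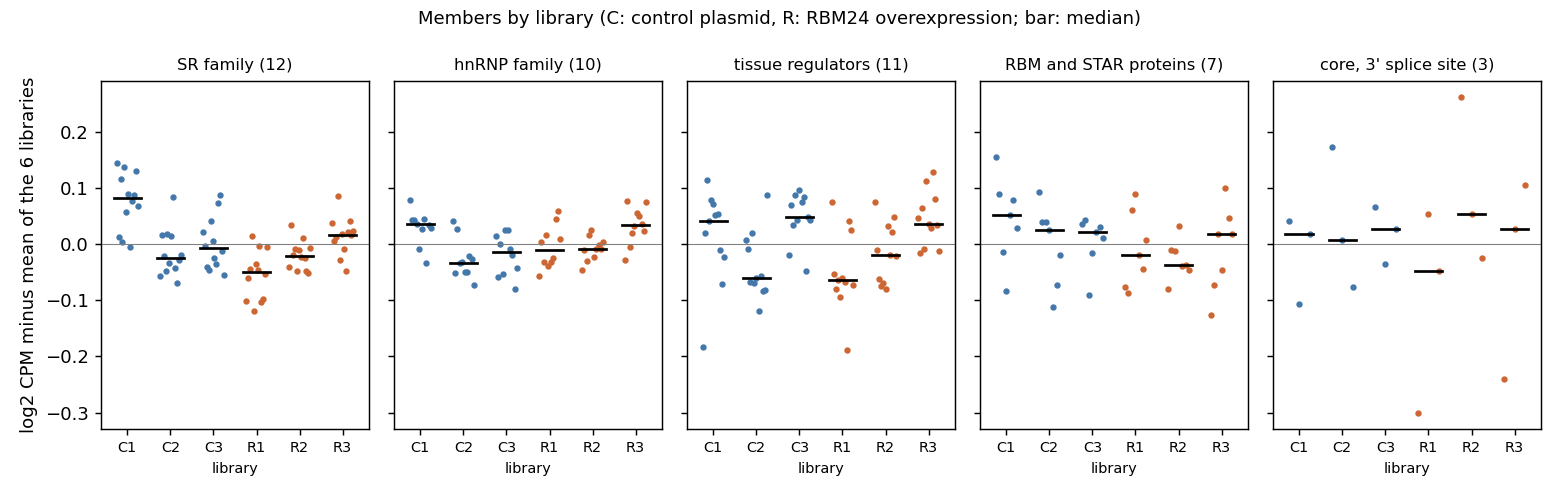
Log2 CPM of each of the 43 genes minus its mean over the 6 libraries, by class and library; C1 to C3 are the control plasmid libraries, R1 to R3 the RBM24 libraries, and bars are medians. The SR genes are highest in C1 (median 0.08), and the wide spread in the core class is U2AF1.

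Gene counts add up all transcripts of a gene, including those with an exon that brings a premature stop codon and sends the transcript to nonsense-mediated decay. GENCODE 29 lists at least 1 such decay transcript for all 12 SR genes, for 9 of the 10 hnRNP genes and for 32 of the 43 genes (74.4%), against 39.4% of the protein-coding genes with counts. That background takes in all 16984 such genes, however few their counts, and is not matched to the members in level or in number of transcripts. In 13 of the 43 genes the stop lies in an exon that shares no base with any protein-coding transcript of the gene. Of these, 5 are SR genes, 2 hnRNP genes, 1 a tissue regulator, 3 RBM genes and 2 core factors. The share of all genes with such an exon was not computed. The starts of 4 such exons are shown because they are what a gene-level count cannot separate from productive transcripts. Each is read 5′ to 3′ on the gene's strand from the exon's first base to the stop codon, which is in capitals, from GENCODE 29 transcripts on GRCh38.
SRSF3 (chr6:36599821-36599854, plus strand): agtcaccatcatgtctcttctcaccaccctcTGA
SRSF6 (chr20:43459153-43459304, plus strand): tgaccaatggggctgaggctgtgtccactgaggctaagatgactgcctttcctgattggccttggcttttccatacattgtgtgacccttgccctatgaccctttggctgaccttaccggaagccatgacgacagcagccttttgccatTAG
SRSF7 (chr2:38749319-38749346, minus strand): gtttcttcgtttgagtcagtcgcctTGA
HNRNPL (chr19:38841624-38841682, minus strand): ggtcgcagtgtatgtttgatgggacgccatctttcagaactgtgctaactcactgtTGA
The whole exons are 456, 268, 449 and 70 bases long in this order. Whether RBM24 changed the inclusion of any of them cannot be read from gene counts and was not analysed here.

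The hnRNP class split around 0. Of its 10 genes 0 passed the test, and 7 had positive and 3 negative log2 changes (5 positive without control library 2 or RBM24 library 3). The median was 0.02. HNRNPA1 (chromosome 12, 54280193 to 54287088, plus strand) had the smallest p. It measured 1546, 1507 and 1478 CPM in the control libraries and 1406, 1418 and 1434 CPM with RBM24. The highest RBM24 library was thus under the lowest control, and the log2 change was -0.09 (SE 0.0538; edgeR adjusted p = 0.522; 95% interval of the change -13.1% to 1.73%). Of the distinct 150-base stretches of HNRNPA1 transcripts, 14.1% occur unchanged in transcripts of other genes, first among them the pseudogene HNRNPA1P7, so some of its reads could be assigned elsewhere.

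HNRNPL, which binds CA repeats, gave 222, 224 and 225 CPM in the control libraries and 235, 227 and 233 CPM with RBM24. Its groups did not overlap, and the log2 change was 0.05 (edgeR adjusted p = 0.698). It overlaps on the same strand an entry, AC104534.3, that holds 71.1% as many counts, so how its reads were divided is uncertain; with the counts of both entries summed, the log2 change was 0.03 (edgeR adjusted p = 0.866). HNRNPU, a scaffold of nuclear RNA, gave 942, 878 and 896 CPM and then 928, 926 and 972 CPM, which overlap (log2 change 0.06, edgeR adjusted p = 0.715). It was 0.036 without control library 2 and 0.034 without RBM24 library 3. Of the other members of the class, HNRNPC was lower in CPM in every RBM24 library than in every control library. HNRNPA2B1, HNRNPD, HNRNPF, HNRNPH1, HNRNPK and HNRNPM overlapped in CPM.

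Of the 11 tissue regulators, 0 passed, with 3 positive and 8 negative log2 changes (5 negative without RBM24 library 1) and a median of -0.05. PTBP1 (chromosome 19, 797075 to 812327, plus strand) had the largest positive estimate of the 43 genes. It measured 428, 488 and 479 CPM in the control libraries and 512, 512 and 502 CPM with RBM24. The RBM24 values were all above the control values, with control library 1 well below the other controls. The log2 change was 0.13 (SE 0.0571; edgeR adjusted p = 0.346), or 9.30% with a 95% interval from 0.513% to 18.9%. Without control library 1 the log2 change was 0.07 (edgeR adjusted p = 0.609).

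RBFOX2, whose protein binds UGCAUG elements beside regulated exons, gave 78.9, 77.8 and 81.5 CPM in the control libraries and 73.4, 72.8 and 76.3 CPM with RBM24. CELF1, an antagonist of the MBNL proteins in muscle, gave 148, 141 and 145 CPM and then 154, 152 and 158 CPM. In both the groups did not overlap, RBFOX2 lying lower and CELF1 higher with RBM24. The log2 changes were -0.10 for RBFOX2 (edgeR adjusted p = 0.403) and 0.10 for CELF1 (edgeR adjusted p = 0.410). PTBP2 was also lower in every RBM24 library, with 22.2, 21.8 and 23.0 CPM in the control libraries and 21.2, 21.8 and 21.7 CPM with RBM24, so that the nearest libraries of the groups are equal at this rounding. QKI, MBNL1, MBNL2, MBNL3, PTBP3, ESRP1 and ESRP2 overlapped between the groups. Exons of CELF1 overlap NDUFS3 on the opposite strand, which holds 74.0% as many counts. Those of ESRP2 overlap NFATC3 on the opposite strand, which holds 75.5% as many. The strand setting is unknown here, so how the reads of CELF1 and ESRP2 were divided is uncertain.

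Of the 7 RBM and STAR genes, 0 passed, with 3 positive and 4 negative log2 changes (2 negative with scaling by total counts alone) and a median of -0.01. The gene nearest to a call was RBM3 (chromosome X, 48574449 to 48579066, plus strand), which encodes a cold-inducible RNA-binding protein. It measured 195, 187 and 180 CPM in the control libraries and 166, 166 and 161 CPM with RBM24. Each RBM24 library lay below each control library, and the control libraries were spread more widely than the RBM24 libraries. The log2 change was -0.19 (SE 0.0492; edgeR adjusted p = 0.0766), or -12.2% with a 95% interval from -18.3% to -5.67%. None of the 150-base stretches of its transcripts occurs in another gene. RBM3 passed by DESeq2 (adjusted p = 0.00934), with no filter on low counts in edgeR (0.0315) and without control library 3 (0.0469). It did not pass an adjusted p of 0.05 under any other alternative run, and over all of them the adjusted p ranged from 0.00934 to 0.282.

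RBM4, a regulator that binds pyrimidine-rich introns, gave 60.9, 58.9 and 59.0 CPM in the control libraries and 53.9, 56.9 and 54.4 CPM with RBM24. Its groups did not overlap, and the log2 change was -0.11 (SE 0.0499; edgeR adjusted p = 0.337). RBM4 shares 20.2% of its 150-base stretches with the readthrough entry RBM14-RBM4, which lies on the same strand and holds 322% of its counts. With both entries summed the log2 change was -0.04 (edgeR adjusted p = 0.768). The readthrough entry also overlaps RBM14 and had a log2 change of -0.02 by itself. The sum therefore lies near that entry however reads were divided, and it cannot show what RBM4 owes to the division. How reads were divided between the entries is uncertain.

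RBM10, a repressor of cassette exons, gave 75.8, 81.7 and 79.5 CPM and then 85.5, 82.2 and 77.8 CPM, which overlap (log2 change 0.05, edgeR adjusted p = 0.746). The RBM10 change became 0.021 once control library 1 was dropped. It was 0.018 when RBM24 library 1 was dropped, and 0.086 when RBM24 library 3 was. Exons of RBM10 overlap NDUFB11 on the opposite strand, which holds 116% as many counts, and the strand setting is unknown here. RBM25, a regulator of apoptotic transcripts, appears in the series' design text as the protein whose binding sites were examined, while the title names RBM24. RBM25 measured 160, 143 and 156 CPM in the control libraries and 152, 150 and 165 CPM with RBM24. The groups overlapped, the log2 change was 0.03 (SE 0.0560; edgeR adjusted p = 0.896), and the 95% interval of the change ran from -6.19% to 10.6%. RBM5, RBM39 and KHDRBS1, the STAR-family protein also called Sam68, overlapped as well. RBM5 overlaps on the same strand its neighbour RBM6, which holds 230% of its counts.

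**Figure D4:**
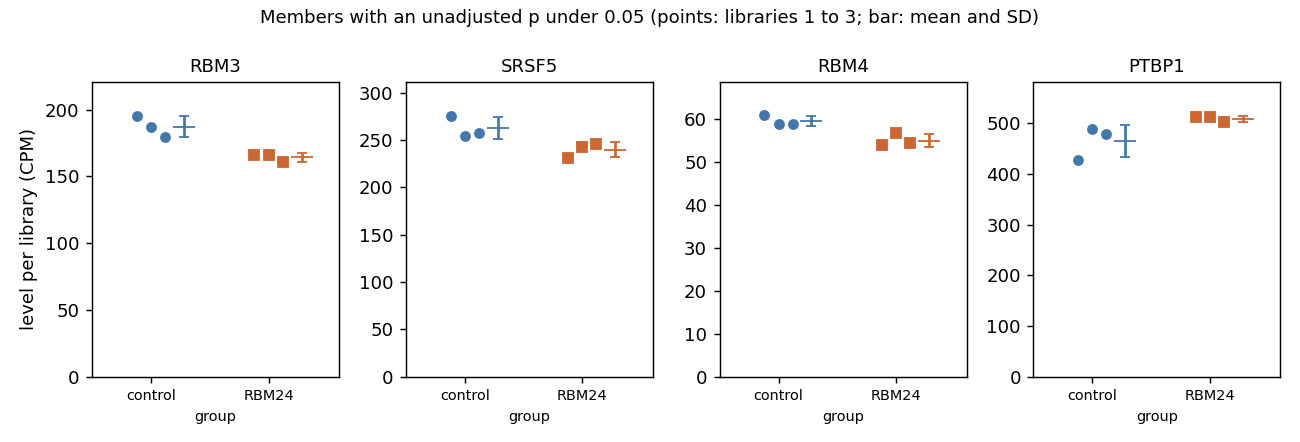
CPM of the 4 genes with an unadjusted p under 0.05 in every library, with the mean and SD (n = 3) of each group; the axes start at 0. The groups do not overlap in any of the 4 panels, and the widest relative gap is that of RBM3.

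The core factors recognise the 3' splice site: U2AF2 binds the polypyrimidine tract, U2AF1 the AG dinucleotide, and SF3B1 holds the branch point in the U2 particle. U2AF2 measured 284, 307 and 298 CPM in the control libraries and 317, 317 and 311 CPM with RBM24. The lowest RBM24 library was above the highest control library, and the log2 change was 0.09 (edgeR adjusted p = 0.490), or 0.057 without control library 1. SF3B1 gave 262, 246 and 264 CPM and then 251, 255 and 279 CPM. Its groups overlapped (log2 change 0.02, edgeR adjusted p = 0.914). Of the 3 core genes 0 passed, with 2 positive and 1 negative log2 change.

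U2AF1 was listed at only 0.623 ± 0.0306 FPKM (SD, n = 3) in the control libraries, against 65.8 ± 3.43 FPKM for its partner U2AF2. It held 400, 429 and 466 counts with the control plasmid and 396, 459 and 368 with RBM24. The genome build carries a second copy, U2AF1L5, on the same chromosome 21 (6484623 to 6499261, against 43092956 to 43107587 for U2AF1), which held 666, 594 and 773 counts and then 809, 607 and 737. The 720 coding bases of the 2 copies differ at 0 positions in GENCODE 29, and 85.1% of the 150-base stretches of U2AF1 transcripts also occur in U2AF1L5. The first 120 coding bases of each are shown because a read from them cannot be assigned to either copy.
U2AF1: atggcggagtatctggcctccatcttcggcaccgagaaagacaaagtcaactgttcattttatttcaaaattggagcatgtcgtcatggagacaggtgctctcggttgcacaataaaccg
U2AF1L5: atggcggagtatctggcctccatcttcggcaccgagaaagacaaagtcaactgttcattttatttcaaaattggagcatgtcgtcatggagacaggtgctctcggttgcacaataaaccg
U2AF1, which had the fewest counts, also had the widest interval of the 43 genes (log2 change -0.17, SE 0.122; edgeR adjusted p = 0.597; -25.8% to 6.21%). Its log2 change was -0.37 without RBM24 library 2 (edgeR adjusted p = 0.146), -0.065 without RBM24 library 1 and -0.095 without RBM24 library 3. With the counts of both copies summed, the log2 change was -0.08 (SE 0.0664; edgeR adjusted p = 0.676). How reads that match several places were treated is unknown here, and the level of U2AF1 is uncertain for that reason.

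At an unadjusted p under 0.05, 1 of the 43 genes was higher (PTBP1, 2.33%) and 3 were lower (RBM3, SRSF5 and RBM4, 6.98%). With scaling by total counts alone the counts were 3 higher and 1 lower, and with unfiltered FPKM 6 higher and 1 lower, so the balance depends on the scaling. Over all tested genes the shares were 6.62% and 6.40% (13.0% in either direction), and 14.9% in either direction among those at or above the level of the least abundant member. Groups without overlap were seen in 4 of the 43 genes on the higher side (PTBP1, CELF1, U2AF2 and HNRNPL) and in 7 on the lower side (RBM3, RBM4, SRSF5, RBFOX2, PTBP2, HNRNPA1 and HNRNPC). These are 9.30% and 16.3%, against 9.53% and 8.62% over all tested genes. These shares are of CPM and depend on the scaling. In FPKM, SRSF5, RBFOX2, PTBP2 and HNRNPC overlapped. SRSF4, HNRNPA2B1, HNRNPD, HNRNPM and HNRNPU lay higher without overlap in FPKM, where the share over all genes was not computed. Of the 43 genes, 17 had positive and 26 negative log2 changes, against 48.6% positive and 51.4% negative over all tested genes, and the median was -0.02. The split was 24 positive and 19 negative when the libraries were scaled by total counts alone, so the sign of these small changes depends on the scaling.

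A further 114 splicing genes were listed for comparison, of which 111 are in the count table and 108 were tested, with 2 entries for MATR3 and so 109 in all. Of these entries, 0 passed the test (edgeR), while 7 were higher and 0 lower at an unadjusted p under 0.05, against 6.62% and 6.40% of all tested genes. DESeq2 had 11 higher and 0 lower, scaling by total counts alone 22 and 0, and the FPKM fits 23 to 29 and 0. The counts were 8 and 1 with no low-count filter and with the replicate block. Without control library 2 they were 11 and 2, and without control library 3 they were 6 and 2. Without RBM24 library 1 they were 6 and 1, and without RBM24 library 3 they were 5 and 1. The remaining runs had 4 to 10 higher and 0 lower. Scaling by total counts moved the median of all genes to 0.026. The all-gene shares at an unadjusted p were not computed for these runs. The log2 changes, with a median of 0.03, were positive in 76 (69.7%) and negative in 33, against 48.6% positive over all tested genes. In 30 of the 46 core spliceosome genes and in 11 of the 12 tested SR-related genes the change was positive, with medians of 0.03 each (39 of the core genes with scaling by total counts alone, and 7 of the SR-related genes without control library 2 or RBM24 library 3). The core median was 0.056 with that scaling and 0.013 without control library 3 or RBM24 library 1. Positive changes were also seen in 18 of the 25 other regulators (median 0.046) and in 4 of the 4 exon junction complex genes (0.066). The counts were 9 of 15 for other hnRNP proteins (0.03) and 4 of 7 for SR protein kinases (0.004). Of the 7 entries higher at an unadjusted p under 0.05, 5 were other regulators. In CPM, libraries did not overlap in 21 of the 109 entries on the higher side (19.3%) and in 1 on the lower side (0.917%). Over all tested genes these shares were 9.53% and 8.62%. The positive count of 76 was 84 without control library 1 and 90 with scaling by total counts alone.

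RNPS1, which joins the exon junction complex and promotes splicing, had the smallest p of them. It measured 190, 207 and 196 CPM in the control libraries and 227, 221 and 216 CPM with RBM24, without overlap (log2 change 0.17, SE 0.0501; edgeR adjusted p = 0.129). PRPF8, the protein at the catalytic centre of the spliceosome, gave 337, 370 and 387 CPM and then 411, 404 and 404 CPM. Control library 1 was its lowest library, and the groups did not overlap (log2 change 0.16, edgeR adjusted p = 0.225; 0.10 without that library). RBM22, which contacts the catalytic RNA core, gave 71.4, 71.7 and 68.2 CPM and then 77.3, 75.5 and 78.3 CPM (log2 change 0.13, edgeR adjusted p = 0.243). RNPS1 passed by DESeq2 (adjusted p = 0.0473), and under no other alternative run.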

How the data were processed

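RNA was sequenced from 6 libraries of CAL27 cells, 3 with a control plasmid (columns named NC) and 3 with RBM24 overexpression. Reads were aligned with HISAT2 to GRCh38, per the submitters' processing notes; the sources used here do not give its version, the counter, the annotation release or the strand setting. The authors deposited whole-number counts per gene and, in the same series, FPKM values, which the authors scaled by gene length and library.

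Counts were filtered with filterByExpr, scaled by TMM and tested with the edgeR 4.0.16 quasi-likelihood test over all 17887 genes kept, in R 4.3.3, with Benjamini-Hochberg adjustment; an adjusted p under 0.05 was a call. FPKM were used for levels between genes. CPM are counts relative to the TMM-scaled library size. Scripts were tested on simulated data. Alternatives used DESeq2 1.42.0, limma 3.58.1 (voom, and log2 of FPKM with a pseudocount of 1 or 0.1), other scalings, filters and thresholds, a replicate block, and each library left out. Sums of counts over genes that share sequence were added after seeing the data. Transcripts came from GENCODE 29.

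The members and lists were chosen with earlier results of these data known. Log2 changes are given for RBM24, the 3 members with the smallest p in each class, RBM25 and the 3 other splicing genes with the smallest p; CIRBP, and PTBP2's CPM, were chosen after their values were seen.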

Additional observations from a re-analysis of the deposited data

How the results depend on the processing

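The count of members called lower was 0 and became 1, RBM3 in each case, with no low-count filter, with DESeq2, and with an adjusted p under 0.1; leaving out one library in turn gave 0 to 1, the 1 being without control replicate 3. The count of members called higher stayed at 0 under every alternative run, and 0 to 0 with a library left out. For the other splicing genes the count called higher was 1 (RNPS1) with DESeq2 and 0 to 0 with a library left out, and the count called lower was 0 under every alternative run. With one library left out in turn, the number of the 43 members with a positive change ranged from 12 to 22, against 17 with all libraries. Of the genes whose log2 changes are given, 2 turned sign. SF3B1 ranged from -0.027 to 0.052 and was negative without control replicate 2 or RBM24 replicate 3, and RBM25 ranged from -0.021 to 0.058 and was negative without the same libraries. The cause was not tested. Over all genes, 153 were called higher and 122 lower, against 223 and 106 with scaling by total counts alone, which moved the median of all genes from -0.0037 to 0.03. Libraries with the same replicate number did not deviate together (correlations across genes of 0.00724, 0.0555 and -0.00039), so the numbers were not taken as pairs; with the replicate block 0 members were called, RBM3 had an adjusted p of 0.0607 (edgeR), and 158 genes were called higher and 135 lower. With 3 libraries a group and 4 residual degrees of freedom, the spread between libraries limits what could be called, and at the depth of U2AF1 (368 to 466 counts) counting error adds to it. The edgeR p-values and intervals used more degrees of freedom than these, because spread was shared across genes.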

Other observations

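RBM3 has a close relative in CIRBP, and both encode RNA-binding proteins induced by mild cold. CIRBP was singled out after its values were seen. It measured 98.7, 101 and 98.3 CPM in the control libraries and 109, 112 and 100.3 CPM with RBM24, and the groups overlapped. Its log2 change was 0.11 (SE 0.0515; edgeR adjusted p = 0.360), with a range from 0.08 to 0.16 over the alternatives, against -0.19 for RBM3. The difference between the 2 genes was not tested.

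SRSF1 shares 41.3% of the 150-base stretches of its transcripts with other entries, and an overlapping entry on the same strand, RP11-159D12.5, holds 211% of its counts. That entry had a log2 change of -0.01 (edgeR adjusted p = 0.952). How reads were divided between SRSF1 and that entry is unknown here, so the level of SRSF1 (20.9 FPKM in the control libraries) is uncertain. Exons of HNRNPA2B1, SRSF9 and RBM4 overlap genes on the opposite strand. These are CBX3 (27.4% as many counts), GATC (24.6%) and RBM4B (77.3%). With the strand setting unknown, how those reads were divided is uncertain too.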
